A study of Mus musculus with 6 samples.

Results

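FOXM1, B-MYB and the MuvB complex form the transcription machinery of the late cell cycle. They are described here through 9 mouse genes, namely Foxm1, Mybl2 (which encodes B-MYB), the MuvB subunit genes Lin9, Lin37, Lin52, Lin54 and Rbbp4, and the DP subunit genes Tfdp1 and Tfdp2. The genes were chosen by symbol, and all 9 were among the 22057 genes of the deposited table. All 9 also passed the filter on low values, a mean normalized count of at least 10 over the 6 libraries, which left 17068 genes to test.

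The RNA came from neural progenitor cells with the genotype label p53-null, which all 6 libraries share. The EF group (n = 3) holds cells of mice 62, 68 and 69 after 4 days in stem cell medium with EGF, FGF and heparin. The PDGFA group (n = 3) holds cells of those mice that spent 4 days in PDGFA, given as 20 ug/ml in the labels. The EF factors were replaced by PDGFA, so each comparison is of 2 media, and the removal of one and the addition of the other cannot be told apart. Neither the age of the mice nor the p53 allele is given in the labels.

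MuvB is a small protein scaffold that changes partners through the cell cycle. In resting cells it joins the pocket protein p130 or p107 and an E2F-DP pair in the DREAM complex, which keeps cell-cycle genes silent. In dividing cells it binds B-MYB and then FOXM1, and with them switches on the genes of G2 and mitosis. LIN54 contacts DNA at a short promoter element called the CHR, while E2F-DP pairs bind E2F sites.

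Libraries held between 27270246 and 39601349 recovered reads. Trp53 was read in all 6 libraries (1672 to 2383 normalized counts in EF, 988.3 to 1122 in PDGFA), and since the labels leave the deleted part unnamed, the genotype cannot be checked from these reads. Over all tested genes limma called 21.8% higher and 18.0% lower in PDGFA. Progenitor markers were present in both groups. Of 10 such genes 4 rose and 4 fell, with Nes at 21108 to 48051 in EF and at 1600 to 3420 in PDGFA, and Sox2 at 8502 to 13553 and 16806 to 18871. All 10 oligodendrocyte markers rose, and their summed count went from 2723 to 4482 in EF to 352459 to 432888 in PDGFA. Of 10 astrocyte markers 6 rose and none fell, with sums of 59724 to 107915 and 191408 to 304661. Of the 8 precursor markers 3 rose and 3 fell (sums of 161552 to 311396 and 184085 to 265731), and of 8 tested neuronal markers 3 rose and 1 fell (sums of 26335 to 31222 and 37038 to 46245). The EF library of mouse 68 stood apart in the precursor and glial lists, with Pdgfra at 14133 against 860.9 and 533.1 in EF of mice 62 and 69, and Gpr17 at 3702 against 122.6 and 24.29. Without it 5 members were still called lower and 1 higher. The microglial list summed to at most 189.2 in any library. The endothelial list summed to 114.9 to 466.1 in EF and 453.2 to 728.4 in PDGFA, with Kdr at 36.39 to 90.07 and 412.5 to 669.3 (limma adjusted p = 0.000624). The fibroblast and mural list summed to 86.93 to 177.9 and 802.1 to 962.5, with Pdgfrb at 6.704 to 45.04 and 711.4 to 900.5 (limma adjusted p = 0.000396). Of the 4 tested genes in each of these 2 lists, 1 and 2 rose and 1 fell in each. The part of these shifts in markers in the results below was not tested. In bulk RNA, fewer cells of a type and less RNA per cell cannot be told apart.

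Of the 9 genes, 5 fell in PDGFA (Foxm1, Mybl2, Lin9, Lin54 and Tfdp2), 1 rose (Lin52) and 3 did not pass the test (Lin37, Rbbp4 and Tfdp1). A gene is called here at an adjusted p under 0.05 in limma, with Benjamini-Hochberg adjustment over all tested genes. Over all tested genes 39.8% were called, 18.0% as lower and 21.8% as higher. The median log2 fold change, PDGFA minus EF on the log2(normalized count + 1) scale, was -0.80 over the 9 genes and -0.01 over all tested genes. The EF and PDGFA libraries did not overlap for the 6 called genes, 5 of them lower and 1 higher, where 55.5% of all tested genes did not overlap, 26.3% as lower and 29.2% as higher. With the mouse as a block limma called 5 members lower and 1 higher, where it called 15.4% and 18.8% of all tested genes. edgeR also called 5 lower and 1 higher (19.1% and 21.0% of tested genes), and DESeq2 called 6 lower and 1 higher (22.0% and 23.1%), Tfdp1 being the sixth.

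**Figure D1:**
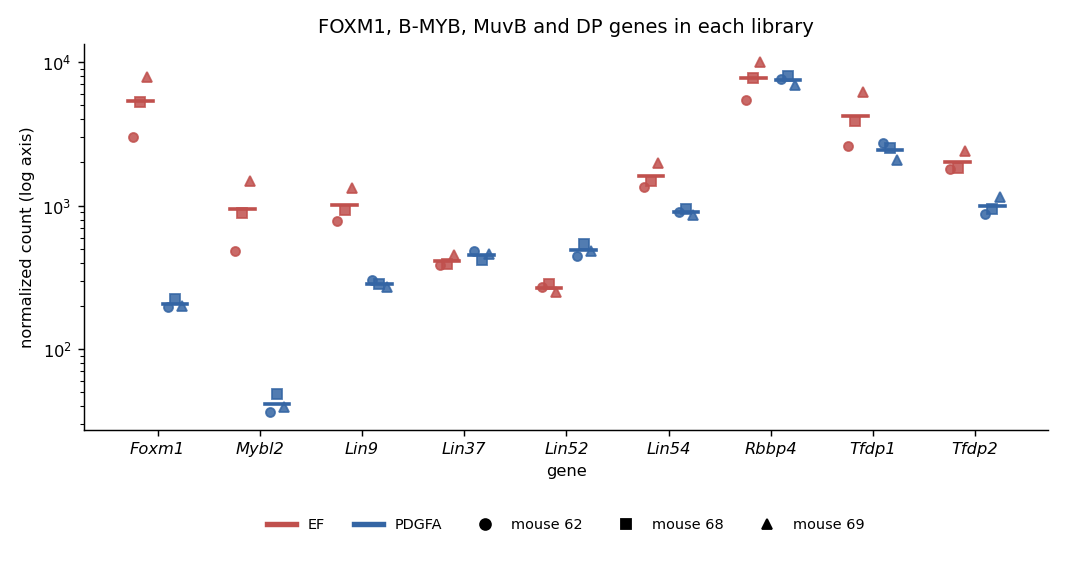
Normalized count (log axis) of the 9 genes in each library; red is EF, blue is PDGFA, symbols are mice and bars are group means. Foxm1 and Mybl2 lie far lower in PDGFA, Lin9, Lin54 and Tfdp2 lower without overlap, Lin52 higher without overlap, and Lin37, Rbbp4 and Tfdp1 overlap.

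Foxm1 (chromosome 6, 128362967 to 128376146, plus strand, GRCm38) encodes the forkhead factor that drives genes of G2 and mitosis. Its normalized counts were 2988, 5285 and 7842 in EF for mice 62, 68 and 69, and 196.1, 222.5 and 200.7 in PDGFA. The lowest EF library was therefore far above every PDGFA library, while the EF libraries themselves differed by 2.62-fold and the PDGFA libraries by 1.13-fold. The mean went from 5372 ± 2428 (SD, n = 3) to 206.4 ± 14.1 (SD, n = 3), 26.0-fold lower. The log2 fold change was -4.59 (SE 0.32, limma adjusted p = 5.69e-05), lower in all 3 mice. Of the 17068 tested genes, 217 had a more negative log2 fold change. The span of Foxm1 shares 691 bases with Tex52 and 644 with the gene model Gm44596 on the same strand, so reads there may belong to either gene.

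Mybl2 (chromosome 2, 163054687 to 163084688, plus strand) encodes B-MYB, the partner that converts MuvB from a repressor to an activator. For mice 62, 68 and 69 its EF libraries held 486.5, 890.6 and 1479 normalized counts, and the PDGFA libraries held 36.5, 48.7 and 39.42. All PDGFA libraries were again far below all EF libraries, and mouse 69 was the highest and mouse 62 the lowest in EF, as for Foxm1. The mean went from 952.1 ± 499 to 41.54 ± 6.37 (SD, n = 3 each), 22.9-fold lower. The log2 fold change was -4.35 (SE 0.40, limma adjusted p = 0.000193). The PDGFA values rest on 43, 51 and 44 reads, so their exact 95% Poisson intervals run from 26.4 to 49.2, 36.3 to 64.0 and 28.6 to 52.9 normalized counts (counting error only), and the differences among them are within that error.

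Mybl2 is also known as a gene that E2F-DP and DREAM control through its own promoter. RefSeq promoter windows of 300 bases (GRCm38.p6) were found for 7 of the 9 genes. Foxm1 and Lin9 had no entry. Bases before the start site are printed 5′ to 3′ (100 for Mybl2 and Tfdp1, and 30 for Lin52, whose stretch GENCODE places in the 5′ UTR) for 3 genes that carry letters of an E2F site and moved differently: Mybl2, which fell, Tfdp1, which did not pass, and Lin52, which rose. Capitals mark GGCGGGA, a core of E2F sites, in Mybl2, and an 8-letter E2F match (TTTCCCGC, TTTGGCGC, TTTCGCGC or TTTGCCGC on either strand) in Tfdp1 and Lin52.
Mybl2 (chr2:163054535-163054634, plus strand): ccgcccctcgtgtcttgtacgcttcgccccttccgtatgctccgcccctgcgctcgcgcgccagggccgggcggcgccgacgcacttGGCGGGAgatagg
Tfdp1 (chr8:13338651-13338750, plus strand): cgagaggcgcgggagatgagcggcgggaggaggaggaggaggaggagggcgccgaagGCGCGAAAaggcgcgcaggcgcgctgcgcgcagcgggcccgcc
Lin52 (chr12:84451478-84451507, plus strand): cgcTTTCCCGCcgacggttggttacgtcac

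In Mybl2 the core lies at -13 to -7 from the start site. In Tfdp1 the 8-letter match lies on the opposite strand at -43 to -36, and in Lin52 it lies at -27 to -20, overlapping a GGCGGGA core on the opposite strand at -25 to -19. The core also occurred in the windows of Tfdp1, Lin37 and Lin54. So 5 of 7 members with a window held it (71.4%), where 23.9% of tested genes did. It was added to the motifs after the Mybl2 promoter was seen, so the share among the members is no independent evidence. An 8-letter E2F match, on either strand, stood in 2.26% of all 32851 windows, and the core in 11.3%. The core thus stood before genes that fell (Mybl2 and Lin54), rose (Lin52) and were not called (Tfdp1 and Lin37). Mybl2 held no 8-letter match, unlike Tfdp1 and Lin52. The printed genes were picked because they carry such letters and moved differently, so their directions say nothing about the sites. Whether these letters bear on the direction of a change was not tested.

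The MuvB subunit genes did not move together: of 5, Lin9 and Lin54 fell, Lin52 rose, and Lin37 and Rbbp4 did not pass, against 39.8% called over all tested genes. Their median log2 fold change was -0.0044. The complex needs all of its subunits at the protein level, which was not measured here.

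Lin9 (chromosome 1, 180641150 to 180690694, plus strand) encodes the subunit to which B-MYB binds together with LIN52. It read 783.4, 933.4 and 1331 in EF and 303.0, 282.6 and 270.6 in PDGFA. Each PDGFA library was below each EF library. The mean went from 1016 ± 283 to 285.4 ± 16.4 (SD, n = 3 each), 3.56-fold lower, with a log2 fold change of -1.79 (SE 0.22, limma adjusted p = 0.000729), lower in all 3 mice.

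Lin54 (chromosome 5, 100441918 to 100500639, minus strand) encodes the DNA-binding subunit that reads the CHR. It read 1345, 1477 and 1984 in EF and 909.0, 954.9 and 858.3 in PDGFA, again without overlap. The mean went from 1602 ± 338 to 907.4 ± 48.3 (SD, n = 3 each), with a log2 fold change of -0.80 (SE 0.18, limma adjusted p = 0.00983). It was not called when both libraries of mouse 68 were left out (adjusted p = 0.0771).

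Lin52 (chromosome 12, 84451422 to 84546145, plus strand) encodes the subunit whose phosphorylation by DYRK1A allows MuvB to hold p130 or p107. It read 272.9, 282.6 and 250.6 in EF and 449.0, 544.3 and 484.7 in PDGFA. It was the member that was higher in every PDGFA library, and mouse 69, the highest EF library for Foxm1, was the lowest for Lin52. The mean went from 268.7 ± 16.4 to 492.7 ± 48.1 (SD, n = 3 each), 1.83-fold higher, with a log2 fold change of 0.87 (SE 0.18, limma adjusted p = 0.00731). The call was lost without the PDGFA library of mouse 68 (adjusted p = 0.058) and without mouse 68 altogether (0.116).

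Lin37 (chromosome 7, 30555441 to 30559838, minus strand) encodes a subunit needed for repression by DREAM. It read 386.9, 392.9 and 450.0 in EF and 480.4, 419.2 and 464.1 in PDGFA, so the groups overlapped. The log2 fold change was 0.15 with a 95% interval of -0.25 to 0.54 (limma adjusted p = 0.514). The interval does not reach a fall of the size seen for Lin54.

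Rbbp4 (chromosome 4, 129307100 to 129335370, minus strand) encodes a histone-binding protein that MuvB shares with several chromatin complexes. It read 5406, 7801 and 10103 in EF and 7604, 8020 and 6924 in PDGFA. The PDGFA libraries lay inside the EF range. The log2 fold change was -0.0044 (95% interval -0.54 to 0.53, limma adjusted p = 0.989). Its span overlaps Sync and the gene model Gm26722 on the opposite strand, and whether the reads keep strand was not checked.

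DP proteins pair with E2F factors to bind DNA, both as activators and in DREAM. Tfdp1 (chromosome 8, 13338751 to 13378448, plus strand), the main DP gene of many cells, read 2605, 3881 and 6237 in EF and 2733, 2528 and 2085 in PDGFA. The EF library of mouse 62 lay within the PDGFA range. The log2 fold change was -0.71 (95% interval -1.41 to -0.01, limma adjusted p = 0.0981), lower in 2 of 3 mice. The gene was called without the EF library of mouse 62 (log2 fold change -1.02, adjusted p = 0.0134), without mouse 62 altogether (0.0271), with scaling to library totals (adjusted p = 0.0432) and in DESeq2 (adjusted p = 0.0373). The range of its adjusted p over the 20 alternatives was 0.0134 to 0.4.

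Tfdp2 (chromosome 9, 96196275 to 96323646, plus strand), which encodes DP2, read 1809, 1827 and 2420 in EF and 873.3, 954.9 and 1153 in PDGFA. The groups did not overlap, and the per-mouse differences of -1.05, -0.94 and -1.07 were close to each other. The mean went from 2019 ± 348 to 993.8 ± 144 (SD, n = 3 each), 2.03-fold lower, with a log2 fold change of -1.02 (SE 0.18, limma adjusted p = 0.00358). The span of Tfdp2 shares 3018 bases with the gene model Gm37195 on the same strand, so reads there may belong to either gene. It also shares 241 bases with the pseudogene Gm28924 on the opposite strand.

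Levels of different genes are compared per kilobase of annotated exon, over all transcripts of a gene, so a gene with long or rarely used exons such as Tfdp2 is set low. In EF the order was Tfdp1 (1156 ± 502 normalized counts per kb, SD, n = 3), Foxm1 (934 ± 422), Rbbp4 (889 ± 269), Lin37 (295 ± 25.1), Lin54 (275 ± 58.0), Mybl2 (206 ± 108), Tfdp2 (144 ± 24.8), Lin9 (140 ± 39.1) and Lin52 (86.4 ± 5.28). In that order Rbbp4 lay above Lin37 and Lin9 above Lin52 in every library range, and all other neighbours overlapped. In PDGFA it was Rbbp4 (860 ± 63.3), Tfdp1 (667 ± 90.3), Lin37 (327 ± 22.8), Lin52 (158 ± 15.5), Lin54 (156 ± 8.30), Tfdp2 (70.8 ± 10.3), Lin9 (39.4 ± 2.26), Foxm1 (35.9 ± 2.45) and Mybl2 (8.97 ± 1.38). There the neighbours Lin52 and Lin54, and Lin9 and Foxm1, overlapped, and the others did not. Foxm1 thus stood among the 3 most abundant in EF and next to last in PDGFA, and Lin52 was last in EF and level with Lin54 in PDGFA.

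**Figure D2:**
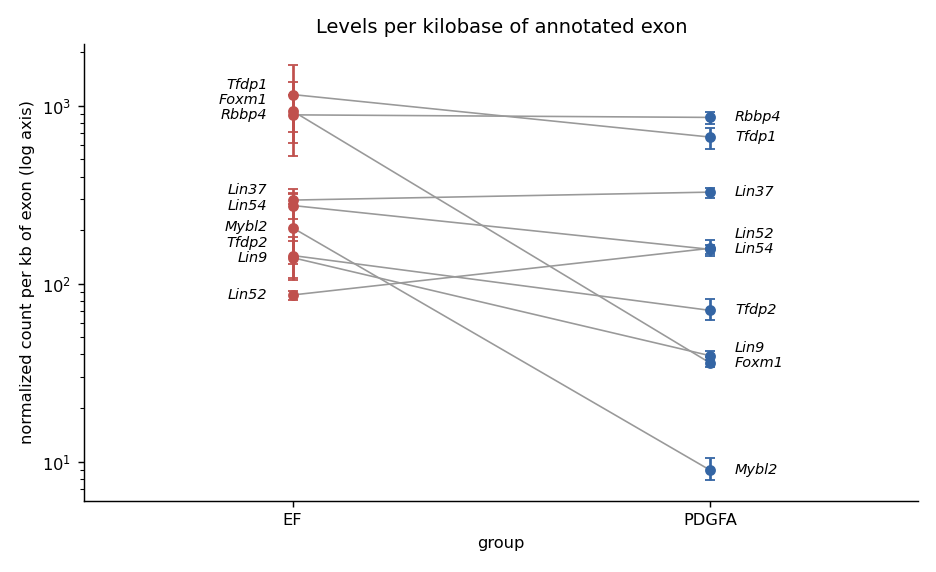
Normalized count per kilobase of annotated exon (log axis) of the 9 genes in EF and PDGFA; points are means of 3 libraries, bars run from the lowest to the highest library and lines join a gene. The mean of Foxm1 goes from 934 to 35.9 and that of Mybl2 from 206 to 8.97. The means of Rbbp4 are 889 and 860, with libraries from 618 to 1155 in EF and from 792 to 917 in PDGFA.

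The spread among the EF libraries differed between the members. The coefficient of variation in EF was 52.4% for Mybl2, 45.2% for Foxm1 and 43.5% for Tfdp1, which was not called. It was 30.2% for Rbbp4, also not called, 27.8% for Lin9, 21.1% for Lin54, 17.2% for Tfdp2, 8.50% for Lin37 and 6.11% for Lin52. In PDGFA it was between 5.32% (Lin54) and 15.3% (Mybl2) for all 9 genes. Mouse 69 was the highest EF library and mouse 62 the lowest for 8 of the 9 genes, Lin52 excepted. The summed count of the 40 genes of the G2/M list described below was 109702, 167348 and 222717 in EF for mice 62, 68 and 69. The size factors that the values were divided by were 1.04, 0.888 and 0.782. From mouse 62 to mouse 69 the sum rose, as did 8 of the 9 genes, while the size factors fell. The part of either measure in the differences was not tested.

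The partners that MuvB meets in DREAM moved less than B-MYB and FOXM1. Of 5 genes, these partners and the kinase gene Dyrk1a, 1 rose, 1 fell and 3 did not pass, against 39.8% called over all tested genes. Their median log2 fold change was -0.50. Rbl2, which encodes p130, the pocket protein of resting cells, averaged 1502 ± 62.5 in EF and 2292 ± 335 in PDGFA (SD, n = 3 each), with a log2 fold change of 0.60 (SE 0.15, limma adjusted p = 0.0158). Without the PDGFA library of mouse 68 or of mouse 69 its adjusted p was 0.0757 or 0.0658. Rbl1, which encodes p107, the pocket protein of cycling cells, averaged 1663 ± 611 and 270.8 ± 16.1, with a log2 fold change of -2.55 (SE 0.26, limma adjusted p = 0.000275).

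E2f4 and E2f5 encode the repressor E2F factors of DREAM, and Dyrk1a the kinase of LIN52. E2f4 read 1391, 1505 and 2180 in EF and 1339, 1167 and 1040 in PDGFA (log2 fold change -0.50, limma adjusted p = 0.0889). E2f5 read 746.0, 940.1 and 1046 in EF and 626.4, 634.0 and 655.8 in PDGFA (log2 fold change -0.50, limma adjusted p = 0.0518). The groups did not overlap for either, but neither passed the threshold. Scaling to the upper quartile called both (adjusted p = 0.0419 for E2f4 and 0.0221 for E2f5), as did library totals (0.0382 and 0.0162) and leaving out the EF library of mouse 62 (0.0433 and 0.00924). E2f5 was also called in edgeR (0.0381) and DESeq2 (0.018). The alternatives gave an adjusted p of 0.0382 to 0.343 for E2f4 and of 0.00924 to 0.31 for E2f5. Dyrk1a had a log2 fold change of 0.05 (limma adjusted p = 0.82), with a sign that turned to -0.05 without the EF library of mouse 62.

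**Figure D3:**
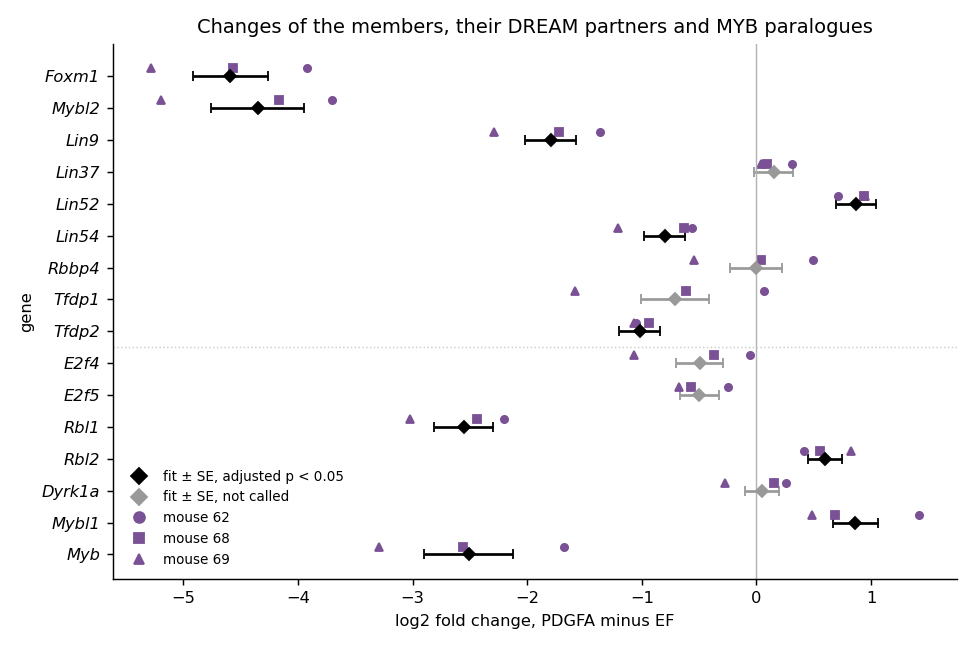
Log2 fold change, PDGFA minus EF, of the 9 genes (above the dotted line) and of the DREAM partners and MYB paralogues (below it); diamonds are the limma estimates ± SE, black where adjusted p is under 0.05, and purple symbols are the differences within each mouse. Foxm1 and Mybl2 lie at -4.59 and -4.35, and Lin52, Rbl2 and Mybl1 lie above 0.

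A ratio of plain counts within a library does not depend on the scaling between libraries. The log2 ratios here were taken on the normalized count + 1, so at low counts they depend on it in part. Of 11 ratios chosen, 10 did not overlap between the groups with 1 added to each value, Tfdp1 to Tfdp2 being the exception. For Foxm1 to Mybl2 this rested on the added 1, with a lowest EF value of 2.41 and a highest PDGFA value of 2.39. Its ratio of plain reads did overlap: 6134 to 1157 in EF of mouse 69 was below 231 to 43 in PDGFA of mouse 62. With a pseudocount of 0.5 its exact permutation p was 0.2, above the smallest value that groups apart give. With 3 libraries a group the exact two-sided permutation test cannot give less than p = 0.1, so no ratio can pass a 0.05 threshold. The log2 ratio of Mybl2 to Rbl2, the factor and the pocket protein that alternate on MuvB, stood at -1.58, -0.82 and 0.00 in the EF libraries of mice 62, 68 and 69 and at -5.70, -5.54 and -6.02 in their PDGFA libraries. The counts of these genes were thus nearly equal in EF of mouse 69 and far apart in every PDGFA library. The mean difference was -4.95 (exact permutation p = 0.1, adjusted p = 0.11 over the 11 ratios, lower in 3 of 3 mice).

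Relative to Lin52, Lin37 and Lin54, Lin9 was lower in each PDGFA library than in any EF library. The log2 ratio of Lin52 to Lin9 went from -1.88 ± 0.46 to 0.78 ± 0.19 (SD, n = 3 each; exact permutation p = 0.1, adjusted p = 0.11, higher in 3 of 3 mice). Lin37 to Lin9 went from -1.27 ± 0.27 to 0.67 ± 0.10 and Lin54 to Lin9 from 0.67 ± 0.10 to 1.67 ± 0.09, with the same p-values from the exact permutation test. The log2 ratio of Mybl2 to Lin9, the genes of B-MYB and its binding partner, was -0.20 ± 0.43 in EF and -2.76 ± 0.25 in PDGFA (exact permutation p = 0.1).

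Foxm1 and Mybl2 kept close to each other. Their log2 ratio, with 1 added to each value, stood at 2.62, 2.57 and 2.41 in the EF libraries and at 2.39, 2.17 and 2.32 in the PDGFA libraries. The mean difference was -0.24 (exact permutation p = 0.1, adjusted p = 0.11, and p = 0.2 with a pseudocount of 0.5). The ratio of Tfdp1 to Tfdp2 overlapped, at 0.99 ± 0.43 and 1.30 ± 0.41 (exact permutation p = 0.4). The ratio of Rbbp4 to its paralogue Rbbp7 went from 0.63 ± 0.19 to 1.62 ± 0.14, and that of E2f4, a repressor, to E2f1, an activator, from 0.86 ± 0.43 to 4.95 ± 0.41, each with exact permutation p = 0.1.

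**Figure D4:**
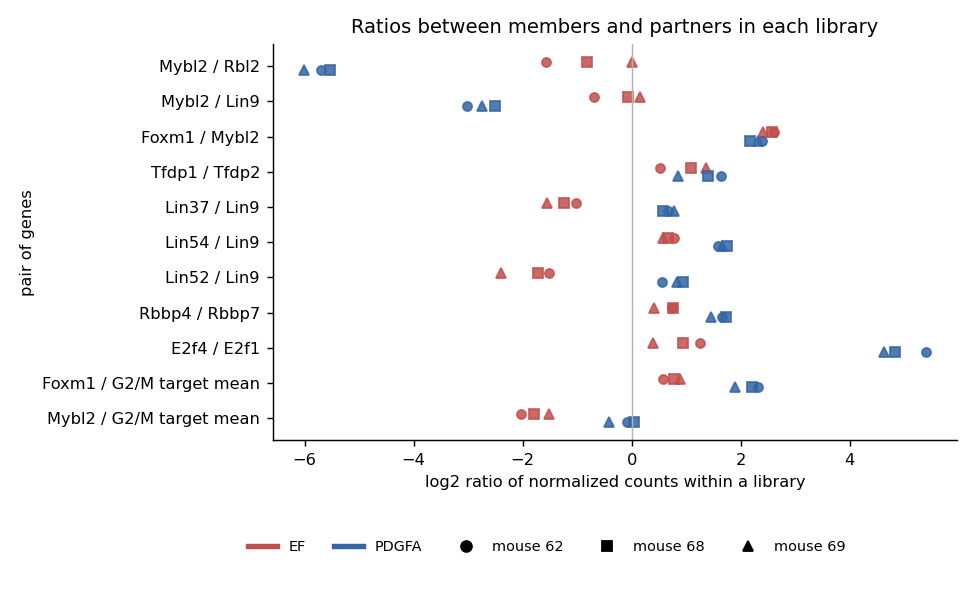
Log2 ratio of normalized counts, with 1 added to each, within each library for 11 pairs of genes, the last 2 against the mean log2 level of the G2/M list. Red is EF, blue is PDGFA and symbols are mice. The groups overlap for Tfdp1 to Tfdp2, nearly touch for Foxm1 to Mybl2, which overlaps in plain reads, and stand apart for the other pairs. Mybl2 to Rbl2 goes from a mean of -0.80 to -5.75.

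Genes that B-MYB, FOXM1 and MuvB are known to switch on in G2 and mitosis fell without exception. In this list 40 of 40 were called lower, where 18.0% of all tested genes were. Their median log2 fold change was -5.95, with a range of -7.93 to -3.15. Knstrn, a spindle and kinetochore protein, averaged 4185 ± 641 and 52.6 ± 6.77, with a log2 fold change of -6.28 (SE 0.20, limma adjusted p = 7.87e-06). Cenpe, a kinetochore motor, had a log2 fold change of -6.28 (SE 0.22). These lists were drawn up with earlier results of these data known, so their direction is no independent evidence.

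Relative to the mean of this list Foxm1 and Mybl2 stood higher in every PDGFA library than in any EF library. The log2 ratio of Foxm1 to the mean log2 level of the list stood at 0.58, 0.78 and 0.89 in the EF libraries and at 2.31, 2.21 and 1.91 in the PDGFA libraries. For Mybl2 the EF libraries held -2.03, -1.79 and -1.51 and the PDGFA libraries -0.08, 0.04 and -0.41. The differences of 1.39 and 1.63 had the same direction in 3 of 3 mice (exact permutation p = 0.1, adjusted p = 0.11, each).

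Of the E2F targets of G1 and S phase, which DREAM also covers, 35 of 35 fell, where 18.0% of all tested genes were called lower. Their median was -3.35 and their range -7.77 to -0.79. Pole, a replicative polymerase, and Mcm10, a replication initiation factor, had log2 fold changes of -4.42 (SE 0.27) and -5.35 (SE 0.34), both with limma adjusted p under those of Foxm1 and Mybl2. The activator E2f1 fell by 4.59 on the log2 scale and the late E2F repressor E2f7 by 5.28. In a list of E2f1, E2f2, E2f3, E2f6, E2f7 and E2f8 all 6 were called lower (median -3.29), where 18.0% of all tested genes were. E2f4 and E2f5, which were not called, were counted with the DREAM partners instead.

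**Figure D5:**
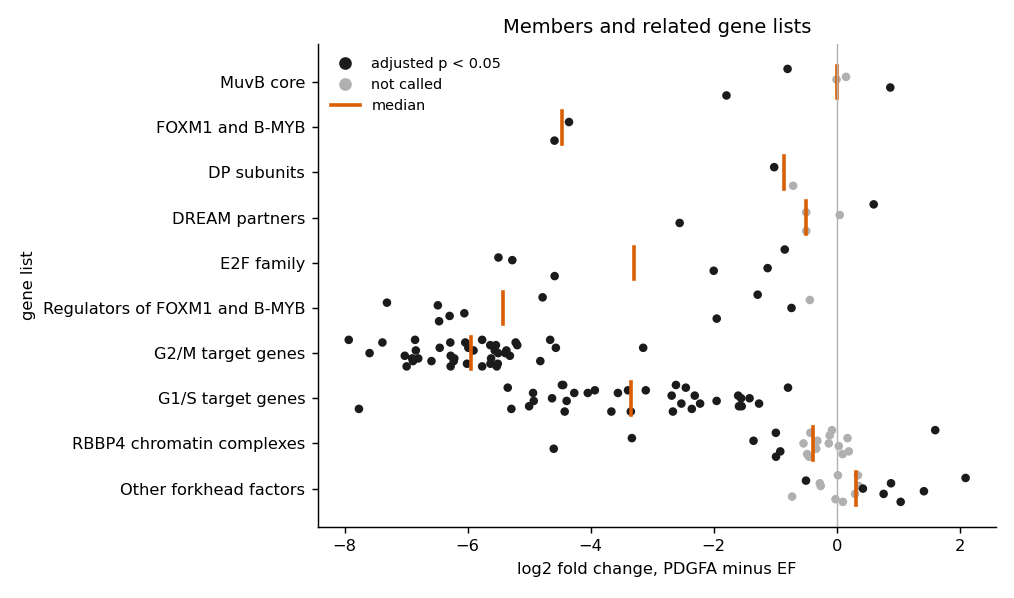
Log2 fold change, PDGFA minus EF, of each tested gene in the members' groups and in related lists; black points have an adjusted p under 0.05, grey points do not and orange bars are medians. The G2/M list is centred at -5.95 and the G1/S list at -3.35, while the MuvB subunits lie on both sides of 0.

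The shares of promoter windows that held each motif are given as a description, with no test. A CHR (TTTGAA or TTCGAA, either strand) occurred in 2 of the 7 members with a window, Lin37 and Lin54, in 25 of 34 G2/M genes with a window (73.5%), in 4 of 25 G1/S genes (16.0%) and in 16.2% of 11327 tested genes. An 8-letter E2F match occurred in 0 of 34 G2/M genes, in 13 of 25 G1/S genes (52.0%) and in 4.64% of tested genes. The shorter core GGCGGGA occurred at close shares in 9 of 34 G2/M genes (26.5%), 7 of 25 G1/S genes (28.0%) and 23.9% of tested genes. It also occurred in 5 of 7 members (71.4%), but was chosen after the Mybl2 promoter was seen. CCAAT, the box that NF-Y binds, occurred in 29 of 34 G2/M genes, in 19 of 25 G1/S genes, in 4 of 7 members and in 43.2% of tested genes. A forkhead core, TAAACA, occurred in 5 of 34 G2/M genes (14.7%), in 1 of 7 members, Tfdp2, and in 10.2% of tested genes. Many genes of the G2/M list are known for a CHR, so its share there was partly fixed by how the list was drawn up. The G1/S genes were listed as E2F targets, so the share of E2F matches there was partly fixed in the same way.

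The kinases and ubiquitin ligases that act on FOXM1 and B-MYB fell in 9 of 10 cases, where 18.0% of all tested genes were called lower. Their median log2 fold change was -5.42. Ccna2, the cyclin A whose kinase phosphorylates both factors, averaged 7293 ± 4016 and 74.4 ± 18.1, with a log2 fold change of -6.47 (SE 0.42). Ccnb1, its counterpart of mitotic entry, Plk1, which activates FOXM1, Melk, a kinase that binds it, and Cdk1 had log2 fold changes of -7.31, -6.49, -6.29 and -6.06. Ccnf, the cyclin F that restrains B-MYB, fell by 4.78 on the log2 scale, Skp2, an F-box protein, by 1.95 and Cdk2 by 1.29. Without both libraries of mouse 68 Cdk2 had an adjusted p of 0.0799.

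Fzr1, the CDH1 activator of the anaphase-promoting complex that degrades FOXM1, had a log2 fold change of -0.74 (limma adjusted p = 0.0434). It was not called without EF 68 or EF 69 (adjusted p = 0.118 and 0.0995) or without PDGFA 62, 68 or 69 (0.121, 0.0977 and 0.117); over all alternatives the range was 0.00132 to 0.214.

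The MYB paralogues of Mybl2 went apart. Myb read 173.3, 319.8 and 484.5 in EF and 53.5, 53.5 and 48.4 in PDGFA, with a log2 fold change of -2.51 (SE 0.39, limma adjusted p = 0.00206). Mybl1, which encodes A-MYB, read 1492, 1692 and 1854 in EF and 3993, 2729 and 2588 in PDGFA, with a log2 fold change of 0.86 (SE 0.19, limma adjusted p = 0.0108). Mybl1 was thus higher in every PDGFA library while Myb and Mybl2 were lower. Without both libraries of mouse 68 the adjusted p of Mybl1 was 0.071.

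Of 16 other forkhead factors tested, 6 rose, 1 fell and 9 did not pass, with a median log2 fold change of 0.32. Over all tested genes 39.8% were called, 21.8% as higher and 18.0% as lower. Without the PDGFA library of mouse 68 there were 3 rises and 0 falls. The falls were 2 with each of the other scalings, in edgeR and in DESeq2, and 0 with the mouse as a block. Foxn3, a forkhead repressor, went from 3793 ± 485 to 10092 ± 871 (log2 fold change 1.42, SE 0.15, limma adjusted p = 0.000347). Foxo1, a forkhead factor held in check by growth factor signalling, went from 846.4 ± 33.0 to 1747 ± 216 (1.04, SE 0.15, limma adjusted p = 0.00131). Foxn2 had a log2 fold change of -0.50 (limma adjusted p = 0.0327) and lost its call in the fit with a mouse block (0.0716). Leaving out EF 62, EF 69 or any single PDGFA library also ended the call (adjusted p = 0.0509, 0.0641 and 0.0767 to 0.126), in a range of 0.0125 to 0.152.

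Of 20 genes of the chromatin complexes that share RBBP4, 6 fell, 1 rose and 13 did not pass, against 39.8% called over all tested genes, with a median of -0.38, and without the EF library of mouse 62 the falls were 10. Those that fell included Chaf1b and Chaf1a, which lay new histones on replicated DNA, with log2 fold changes of -4.60 (SE 0.44) and -3.33 (SE 0.32). The one that rose was Ezh1, a histone methyltransferase of Polycomb, at 1.60 (SE 0.26, limma adjusted p = 0.00241).

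The genes nearest to Foxm1 in profile over the 6 libraries were Aurka, a mitotic kinase, Cks2, a CDK-binding subunit, Asf1b, a histone chaperone, Mcm5, a helicase subunit, and the histone gene H2bc11. Their Euclidean distances on centred log2 values were 0.119, 0.167, 0.194, 0.264 and 0.317 among 11970 genes compared. Mybl2 was at 0.366, the ninth nearest. Nearest to Mybl2 were Mcm5 (0.228), Asf1b (0.251), Mcm3, another helicase subunit (0.324), Foxm1 (0.366) and Chaf1b (0.409). Aurka read 1119, 1962 and 2806 in EF and 69.6, 74.5 and 70.8 in PDGFA, a course much like that of Foxm1. With 2 groups that lie far apart, likeness over these libraries mostly reflects the size of the fall and the spread in EF. Histone genes have near-identical copies, so the value of H2bc11 is uncertain.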

How the data were processed

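The authors deposited 1 table of normalized signal: gene read counts over a size factor for each library, per the file headers and values. The submitters' processing notes list FastQC, STAR, DESeq2 and mm10 (GRCm38); annotation, versions and strand setting are not given there. Per the labels, RNA was polyadenylated and the kit NEBNext Ultra II. Whether the reads keep strand was not checked. Dividing by the lowest value above 0 in a library made 100% of its values whole (within 0.001), which gave the reads back.

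Genes with a mean of at least 10 (17068 genes, 4989 left out) were tested as log2(value + 1), a scale that understates changes of low genes, with limma 3.58.1 (lmFit and trended eBayes; R 4.3.3), group as the only term, two-sided, Benjamini-Hochberg at 0.05. edgeR 4.0.16 (quasi-likelihood, 6855 genes called) and DESeq2 1.42.0 (7688 called) were run on the recovered reads. The tests were run on simulated reads, with far fewer changed genes than were called in the data. There DESeq2 called more unchanged genes than limma or edgeR, which does not show how often it does so in the data.

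The titles give the same mice in both groups, so libraries are paired by animal; the paired deviations from group means correlated at -0.0906, 0.11 and -0.11 for mice 62, 68 and 69. Chi-square per degree of freedom between libraries of a group was 20.0 to 140, so none was a repeat deposit. Coordinates and exon lengths were taken by symbol from GENCODE M21 (GRCm38), and promoters from RefSeq (GRCm38.p6, 250 bases before to 50 after the start). Members and lists were chosen with earlier results of these data known, and GGCGGGA was added to the motifs after the Mybl2 promoter was seen. Named were the members, Trp53, all tested DREAM partners, MYB paralogues and regulators (1 regulator is not reported here), up to 2 rises and 2 falls with the smallest p in each other list, and the 5 genes nearest to Foxm1 and Mybl2. Other genes are markers, parts of ratios or overlapping genes.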

Additional observations from a re-analysis of the deposited data

How the results depend on the processing

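Of 20 alternatives (pseudocounts 0.5 and 5, no filter or a mean of at least 50, 3 other scalings, each library or mouse left out, the mouse as a block, edgeR with and without the block, and DESeq2), Foxm1, Mybl2, Lin9 and Tfdp2 kept their direction and call, and Lin37 its missing call, in all 20. With the mouse as a replicate block 1 member was higher and 5 lower in limma and in edgeR, as without it. Over all genes the block gave 3213 higher and 2626 lower in limma, against 3720 and 3076 without it, and 3040 and 2498 in edgeR, against 3592 and 3263. Among the named genes the block ended the call of Foxn2 alone. Leaving out 1 library gave 2306 to 4213 higher and 1855 to 3848 lower genes, 0 to 1 higher and 5 to 6 lower members, and 5 to 9 higher genes in the related lists; the fewest calls over all genes came without PDGFA 68. Without mouse 68 there were 1945 higher and 1335 lower genes, 0 higher and 4 lower members and 4 higher genes in the lists, with fewer libraries fitted. With 1 library left out the log2 fold change was 0.80 to 0.93 for Lin52, -1.02 to -0.39 for Tfdp1, -0.24 to 0.21 for Rbbp4 and -0.0455 to 0.152 for Dyrk1a. Without mouse 68 it was 0.83 for Lin52, -0.89 for Lin54 and -0.0083 for Dyrk1a, and without mouse 62 it was -1.10 for Tfdp1 and -0.0567 for Dyrk1a. Rbbp4, close to 0, changed sign with TMM (0.0003), edgeR with the block (0.0004) and without EF 68 (0.02), EF 69 (0.21), PDGFA 69 (0.05) or mouse 69 (0.27). Tfdp1 passed with library totals (-0.77) and DESeq2 (-0.79), where Dyrk1a was -0.0147 with library totals. Where no construction of the alternative shows it, the cause was not tested. Scaling to library totals moved the median of all genes by -0.06 (log2). Depth limits Mybl2 in PDGFA most.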
